A study of Rattus norvegicus with 10 samples.

Results

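The G1 cyclins and their kinases were followed as 8 genes chosen by name: the D cyclins Ccnd1, Ccnd2 and Ccnd3, their kinases Cdk4 and Cdk6, the E cyclins Ccne1 and Ccne2, and the E cyclin kinase Cdk2. All 8 were present among the 39784 gene names of the deposited RNA-seq tables, each on 1 row. RNA was sequenced from wild-type neonatal rat heart cells, labelled cardiomyocytes, in 4 libraries: 2 that overexpressed YAP5SA (treatment label Ad-Xon-YAP5SA) and 2 that overexpressed YAP5SA-S94A (Ad-Xon-YAP5SA-S94A). YAP, a coactivator of transcription, is held back by Hippo signalling. YAP5SA lacks inhibitory phosphorylation sites, and the S94A change disrupts binding to the TEAD transcription factors. All cultures were grown in medium with fetal bovine serum. The age of the animals, the promoter and the time after delivery were not given in the sources used here. Both groups overexpressed an activated YAP, and RNA-seq of GFP or uninfected cells was not part of the data used, so each difference is one between the 2 forms. CUT&RUN data, from 6 further samples, were not used here.

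Passage through G1 is driven by cyclins that switch on cyclin-dependent kinases. D cyclins respond to growth signals and pair with Cdk4 or Cdk6, which begin to phosphorylate the retinoblastoma proteins. This frees E2F factors to transcribe genes of DNA synthesis and the E cyclins, and cyclin E with Cdk2 completes the step into S phase. Inhibitors of the INK4 class block Cdk4 and Cdk6, and those of the CIP/KIP class act on several cyclin and kinase pairs. In the heart, D cyclins and Cdk4 are abundant before birth and decline as cardiomyocytes leave the cell cycle.

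The proximal promoters of Ccnd3, a D cyclin gene that rose, and Cdk4, a kinase gene nearly equal in both forms, are shown as sequence context. Both are the 250 bases before the start given by RefSeq on the rat build GRCr8, read 5′ to 3′ on the gene's strand, Ccnd3 from chr9:20897876-20898125 (minus strand) and Cdk4 from chr7:64771203-64771452 (plus strand). The Ccnd3 start used by RefSeq lies inside the longer span that it gives for the gene on this build. Capitals mark letters that matched a searched motif.
Ccnd3: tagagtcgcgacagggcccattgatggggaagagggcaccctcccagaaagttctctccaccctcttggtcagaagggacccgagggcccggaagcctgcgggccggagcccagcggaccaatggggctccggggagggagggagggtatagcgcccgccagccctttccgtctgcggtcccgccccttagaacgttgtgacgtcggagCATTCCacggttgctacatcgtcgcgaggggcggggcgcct
Cdk4: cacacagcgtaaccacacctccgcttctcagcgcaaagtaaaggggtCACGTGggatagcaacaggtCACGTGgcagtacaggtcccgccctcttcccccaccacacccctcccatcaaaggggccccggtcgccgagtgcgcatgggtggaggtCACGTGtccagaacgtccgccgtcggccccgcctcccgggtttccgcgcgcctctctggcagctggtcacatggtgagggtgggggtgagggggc
Of the 8 genes 4 were matched in the RefSeq promoter table, the others being Ccne1 and Cdk2. The motifs searched on both strands were the TEAD core GGAATG, the AP-1 site TGACTCA, the E2F site as TTTGGCGC or TTTCGCGC, the cyclic AMP response element TGACGTCA and, added after the windows were read, the E-box CACGTG, none of which overlapped another in these windows. The TEAD core occurred once, on the opposite strand as CATTCC, 41 to 36 bases before the Ccnd3 start, and it is held by 12.1% of the 33469 promoter windows of this length. The E-box occurred 3 times in the Cdk4 window, at 203 to 198, 183 to 178 and 95 to 90 bases before the start, and 5.59% of all windows hold it. No searched letters were found in the windows of Ccne1 and Cdk2. Of all windows 4.05% hold the AP-1 site, 0.636% the E2F site and 1.59% the cyclic AMP response element. These matches describe letters and do not show binding.

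Gene levels are TPM, a transcript abundance scaled for gene length and to the same total in every library. The tables corresponded to 4.02 to 5.10 gigabases of aligned sequence per library. Log2 fold changes give YAP5SA relative to YAP5SA-S94A, computed from log2(TPM + 1); for genes of low level this makes a change look smaller. A gene is said to have risen or fallen where limma, fitted across all 13420 genes with a mean of at least 1 TPM, gave a Benjamini-Hochberg adjusted p under 0.05. Each form had 2 libraries, titled as biological replicates; whether these were separate cultures is not stated, so p-values reflect only the spread among them. The share of TPM on the mitochondrial chromosome differed between the forms, at 7.53% and 10.2% in YAP5SA and 12.6% and 14.03% in YAP5SA-S94A. With that chromosome left out 6 of the 8 genes were still called higher.

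Of the 8 genes 6 rose in YAP5SA, against 32.9% of all tested genes called in either direction: all 3 D cyclins, Cdk6 and both E cyclins. None fell, and none had an unadjusted limma p under 0.05 in that direction. Over all tested genes limma called 17.4% higher and 15.5% lower. Both YAP5SA libraries lay above both YAP5SA-S94A libraries in 7 of the 8 genes, against 34.5% of all tested genes, the exception being Cdk4. The median log2 fold change of the 8 was 0.79, beside 0.00015 for all tested genes. As the 8 genes were chosen with earlier results of these data known, these contrasts are given as values and not as a test. Each of the 8 was above 1 TPM in every library, so none entered the test only through the form in which it was higher. With 2 libraries per form the smallest two-sided p of an exact permutation test is 0.333, and the calls depend on the variance that limma shares across genes. The number called higher dropped to 4 when YAP5SA-S94A replicate 1 was left out and to 3 when its replicate 2 was, and it was also 3 at an adjusted p under 0.01, where Ccnd1, Ccnd3 and Cdk6 remained.

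**Figure D1:**
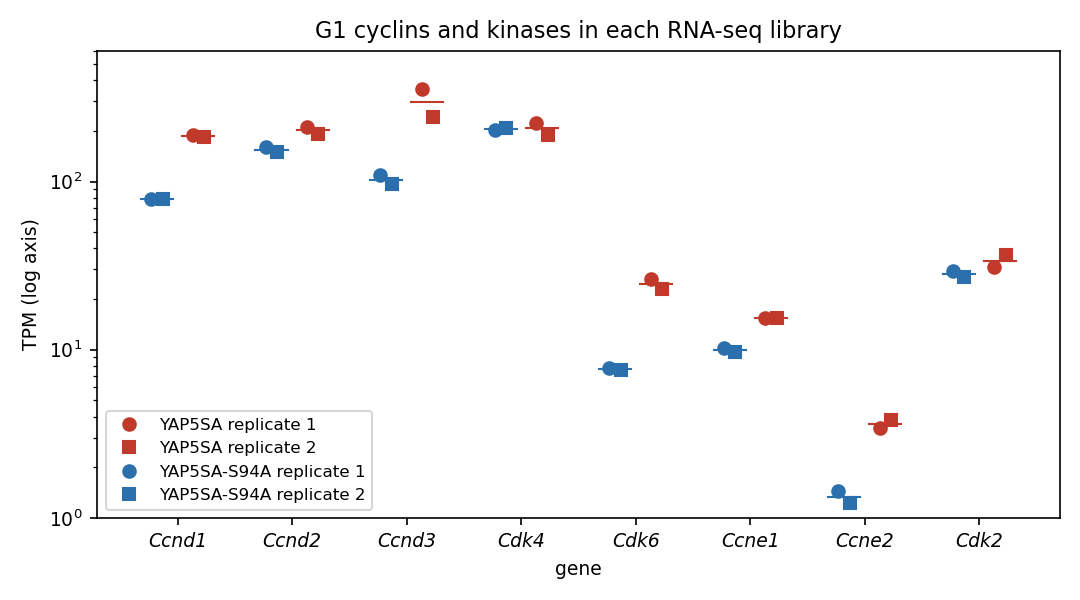
TPM of the 8 genes on a log axis, with 1 point per library (circles replicate 1, squares replicate 2) and a short line at the mean of each form. The YAP5SA points lie above the YAP5SA-S94A points in 7 genes, with Ccnd3 spread from 243 to 354 TPM in YAP5SA and Cdk4 near 206 TPM in both forms.

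Among the D cyclins, which carry growth signals into the cell cycle, Ccnd1 and Ccnd3 rose more than Ccnd2. Ccnd1, the D cyclin best known as an early response to mitogens (chromosome 1, 200089002 to 200098524, minus strand, rn7), reached 188 and 183 TPM with YAP5SA and 79.1 and 78.3 TPM with YAP5SA-S94A. The libraries of each form lay close together and the forms were far apart, with means of 186 ± 3.62 against 78.7 ± 0.55 TPM (SD, n = 2 each). The log2 fold change was 1.23 (SE 0.092, limma adjusted p = 1.18e-04), and it ranged from 1.16 to 1.25 over 16 alternative analyses.

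Ccnd3, a D cyclin often retained in differentiating tissues (chromosome 9, 13394161 to 13400341, minus strand), stood at 354 and 243 TPM in YAP5SA and at 109 and 96.3 TPM in YAP5SA-S94A. The forms did not overlap, but the YAP5SA libraries differed from each other by more than the YAP5SA-S94A libraries did. The means were 298 ± 78.5 and 103 ± 9.27 TPM (SD, n = 2 each), a ratio of 2.90. On the log2 scale the difference was 1.504 (SE 0.18, limma adjusted p = 8.51e-04). It became 1.23 when YAP5SA replicate 1 was left out and 1.78 when replicate 2 was, with the call kept in both cases.

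Ccnd2, the third D cyclin (chromosome 4, 159966883 to 159989261, minus strand), stood at 212 and 193 TPM in YAP5SA and at 160 and 150 TPM in YAP5SA-S94A. It was higher in both YAP5SA libraries, by a smaller margin than the other D cyclins: the log2 fold change was 0.39 (SE 0.098, limma adjusted p = 0.0220), with a 95% confidence interval of 0.16 to 0.62 that lies below the intervals of Ccnd1 (1.01 to 1.44) and Ccnd3 (1.09 to 1.92). The call was lost without YAP5SA-S94A replicate 1 (limma adjusted p = 0.103) or 2 (0.232), with FPKM (0.0577), with no filter (0.0509) and with no intensity trend (0.0800).

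These unequal changes altered the makeup of the D cyclin transcripts. In YAP5SA-S94A the order of levels was Ccnd2, Ccnd3, Ccnd1, with no overlap between neighbours. In YAP5SA the order was Ccnd3, Ccnd2, Ccnd1, and in each YAP5SA library Ccnd3 was the highest of the 3, while Ccnd2 and Ccnd1 lay close together (203 ± 13.6 and 186 ± 3.62 TPM). Ccnd2 made up 45.9% and 46.2% of the D cyclin sum in the YAP5SA-S94A libraries and 28.2% and 31.2% in the YAP5SA libraries. The share of Ccnd3 was 31.4% and 29.7% in YAP5SA-S94A and 46.9% and 39.2% in YAP5SA. That of Ccnd1 was 22.7% and 24.2% in YAP5SA-S94A against 24.95% and 29.6% in YAP5SA. A share within a library does not depend on how the library was scaled. The D cyclin sum itself was 754 and 619 TPM in YAP5SA and 348 and 324 TPM in YAP5SA-S94A, a ratio of means of 2.04. Sums and shares are given as values with no test.

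**Figure D2:**
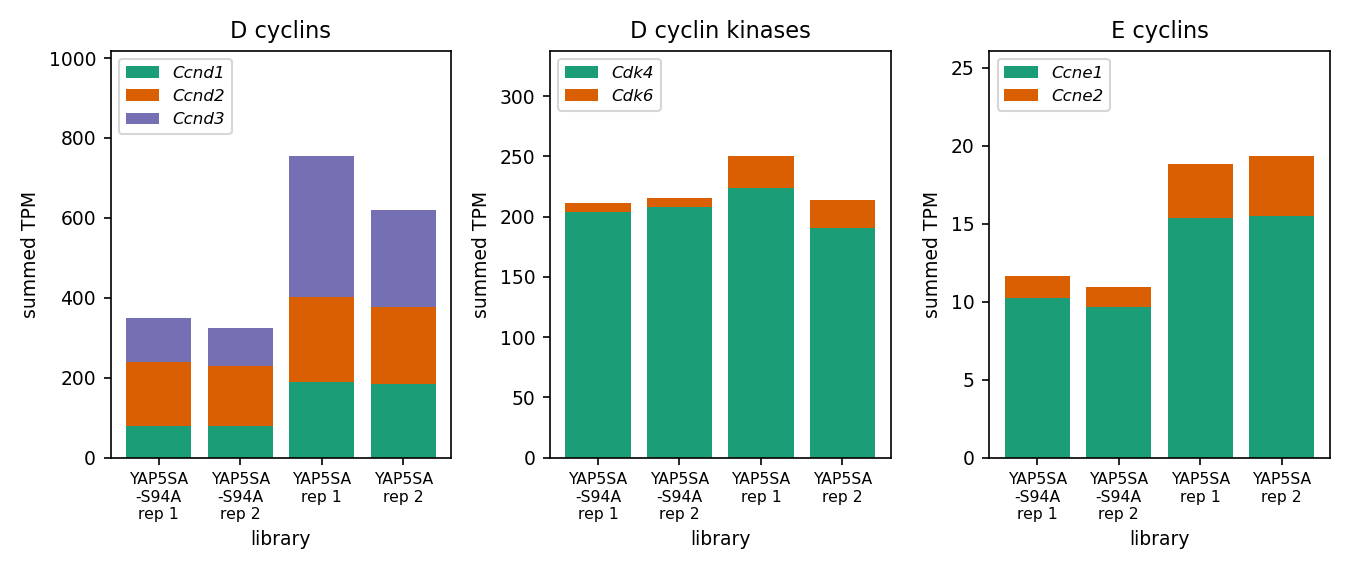
Summed TPM (linear axis from 0) of the D cyclins, of Cdk4 and Cdk6 and of the E cyclins, stacked by gene, with 1 bar per library. Ccnd2 is the tallest D cyclin segment in the YAP5SA-S94A libraries and Ccnd3 in the YAP5SA libraries, while Cdk4 makes up most of the kinase bar in all 4 libraries.

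The D cyclin kinases split. Cdk4 (chromosome 7, 62886124 to 62889562, plus strand) stood at 224 and 191 TPM in YAP5SA and at 204 and 208 TPM in YAP5SA-S94A. The libraries of the forms overlapped, and the log2 fold change was 0.0054 (SE 0.11, limma adjusted p = 0.975), with a 95% confidence interval of −0.25 to 0.26. Its sign changed with the scaling: it was −0.065 with quantile normalization and −0.066 when the mitochondrial chromosome was left out, where Cdk4 was likewise not called.

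Cdk6, the other partner of the D cyclins (chromosome 4, 30637650 to 30829688, minus strand), had the largest ratio of means of the 8 genes, 3.22. It stood at 26.3 and 23.0 TPM in YAP5SA and at 7.76 and 7.55 TPM in YAP5SA-S94A. The forms were well separated, with a log2 fold change of 1.56 (SE 0.15, limma adjusted p = 3.39e-04) that was called in each of 16 alternative analyses. Cdk6 remained much the lower of the pair. Its share of the Cdk4 and Cdk6 sum was 10.5% and 10.8% in YAP5SA and 3.67% and 3.50% in YAP5SA-S94A. The sum was 250 and 214 TPM against 211 and 215 TPM, with overlapping forms, so that D cyclin TPM per unit of kinase TPM was 3.02 and 2.90 in YAP5SA and 1.65 and 1.51 in YAP5SA-S94A.

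Both E cyclins, which activate Cdk2 at the entry into S phase, rose at levels far below those of the D cyclins. Ccne1 (chromosome 1, 90781947 to 90791188, minus strand) stood at 15.4 and 15.5 TPM in YAP5SA and at 10.2 and 9.69 TPM in YAP5SA-S94A. The forms did not overlap, with a log2 fold change of 0.59 (SE 0.14, limma adjusted p = 0.0192), a call that was lost without YAP5SA-S94A replicate 1 (limma adjusted p = 0.107) or 2 (0.164).

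Ccne2, its close relative (chromosome 5, 24285078 to 24298258, plus strand), was the lowest of the 8 genes, at 3.43 and 3.81 TPM in YAP5SA and 1.44 and 1.23 TPM in YAP5SA-S94A. Both YAP5SA libraries were higher, and the log2 fold change was 0.98 (SE 0.22, limma adjusted p = 0.0145). Leaving out YAP5SA-S94A replicate 2 ended the call (limma adjusted p = 0.0668). Its ratio of means, 2.71, exceeded the 1.55 of Ccne1, and the share of Ccne1 in the cyclin E sum was 81.7% and 80.3% in YAP5SA and 87.7% and 88.7% in YAP5SA-S94A. Ccne2 rests on a per-base coverage of 1.84 to 4.99 per library, against 187 to 713 for Ccnd3. It also overlaps Ints8, on the opposite strand, over 2717 bases. Ints8 stood at 20.7 and 23.6 TPM in YAP5SA and 19.8 and 19.6 TPM in YAP5SA-S94A, and the sources used here do not give whether counting used the strand, so part of the Ccne2 signal is uncertain.

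Cdk2, the partner of the E cyclins (chromosome 7, 1129878 to 1137431, minus strand), stood at 31.1 and 36.4 TPM in YAP5SA and at 29.5 and 26.9 TPM in YAP5SA-S94A. The forms did not overlap, with means of 33.7 ± 3.72 and 28.2 ± 1.87 TPM (SD, n = 2 each). The log2 fold change of 0.25 was not called (SE 0.13, limma adjusted p = 0.198), with a 95% confidence interval of −0.066 to 0.56. It was not called in any of 16 alternative analyses. The cyclin E sum per unit of Cdk2 TPM was 0.605 and 0.532 in YAP5SA and 0.395 and 0.406 in YAP5SA-S94A.

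**Figure D3:**
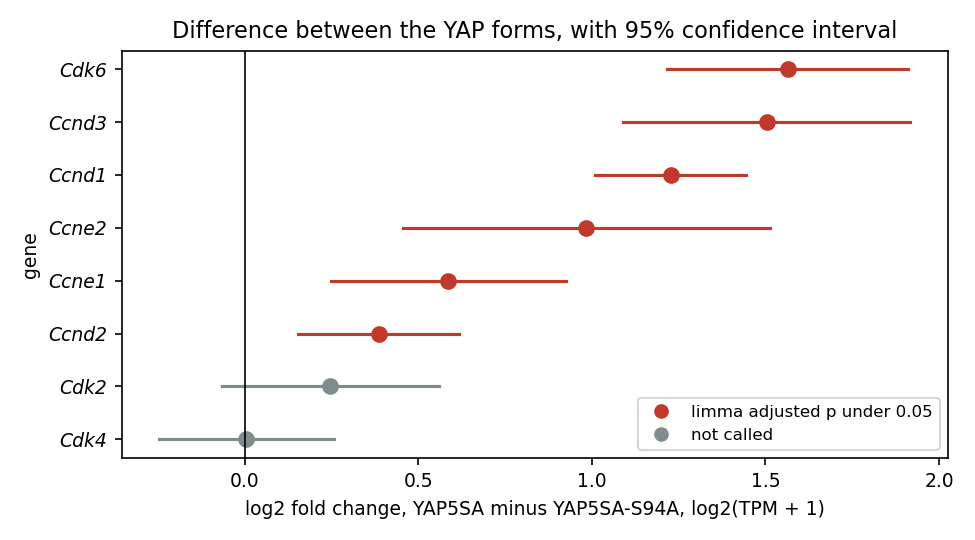
Log2 fold change of each gene (YAP5SA minus YAP5SA-S94A, on log2(TPM + 1)) with its 95% confidence interval from limma, red where the adjusted p is under 0.05 and grey where it is not. The intervals of Cdk4 and Cdk2 include 0, and those of Ccnd1, Ccnd3 and Cdk6 lie above 1.

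Across the 8 genes the levels covered a wide range. In YAP5SA-S94A the order of means was Cdk4 (206 TPM), Ccnd2 (155), Ccnd3 (103), Ccnd1 (78.7), Cdk2 (28.2), Ccne1 (9.96), Cdk6 (7.65) and Ccne2 (1.34), and no 2 neighbours overlapped. In YAP5SA it was Ccnd3 (298 TPM), Cdk4 (207), Ccnd2 (203), Ccnd1 (186), Cdk2 (33.7), Cdk6 (24.7), Ccne1 (15.4) and Ccne2 (3.62), where Cdk4 and Ccnd2 overlapped. Cdk6 thus lay below Ccne1 in both YAP5SA-S94A libraries and above it in both YAP5SA libraries. The genes whose log2 values, centred on the gene's mean, lay nearest over the 4 libraries were Mid1 and Zfp57 for Ccnd1, Laptm4b and Adgrl2 for Ccnd2, Prss12 and Cavin1 for Ccnd3, Gckr and Jag1 for Cdk6, Hirip3 and Cenpo for Ccne1, Hmgn3 and Gask1b for Ccne2, Ttpal and Dcp1a for Cdk4, and Polr2g and St3gal6 for Cdk2. Euclidean distances ran from 0.013 (Ttpal) to 0.075 (Cavin1), over 4 libraries only.

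The inhibitors of these kinases moved both ways. Of 7 tested INK4 and CIP/KIP genes 2 rose and 2 fell, beside 17.4% and 15.5% of all tested genes. Their median log2 fold change was 0.21, but it depended on single libraries: 0.081 leaving out YAP5SA replicate 1, 0.37 leaving out YAP5SA replicate 2 and 0.47 leaving out YAP5SA-S94A replicate 1. Cdkn1b, which encodes p27, stood at 52.6 and 47.5 TPM in YAP5SA and 84.0 and 103 TPM in YAP5SA-S94A, and it fell by 0.88 on the log2 scale (limma adjusted p = 0.00242). D cyclin TPM per unit of Cdkn1b TPM was therefore 14.3 and 13.0 in YAP5SA and 4.15 and 3.15 in YAP5SA-S94A. That ratio covers Cdkn1b alone, the inhibitor gene that fell most. The more abundant Cdkn1a rose, so the ratio does not stand for the inhibitors as a class.

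Cdkn1c, the imprinted gene of p57, stood at 118 and 84.0 TPM against 148 and 148 TPM and fell by 0.57 (limma adjusted p = 0.0298). Neither the fit with no intensity trend (limma adjusted p = 0.0818) nor that with no filter (0.109) called it. Cdkn2b, the p15 gene of the INK4 class, rose from 44.4 ± 2.85 to 81.0 ± 9.04 TPM (SD, n = 2 each). Cdkn1a, which encodes p21 and was the most abundant inhibitor, stood at 710 and 548 TPM in YAP5SA and 471 and 451 TPM in YAP5SA-S94A (log2 fold change 0.44, limma adjusted p = 0.0399). The forms did not overlap for either gene, but the Cdkn1a call was lost without YAP5SA-S94A replicate 1 (limma adjusted p = 0.0655) or 2 (0.128), with FPKM (0.0862), with no intensity trend (0.112) and with no filter (0.131). Without either of these libraries 1 inhibitor was called higher. The other INK4 genes were not called: Cdkn2a at 14.4 ± 2.39 against 13.0 ± 6.41 TPM, Cdkn2c at 12.1 against 11.1 TPM and Cdkn2d at 32.7 against 25.7 TPM, with libraries that overlapped for Cdkn2a but not for the other genes.

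Of the 3 retinoblastoma genes, whose proteins are the substrates through which D cyclin kinases release E2F, 2 fell, beside 15.5% of all tested genes. Rb1 stood at 23.2 and 26.9 TPM in YAP5SA and 36.0 and 35.4 TPM in YAP5SA-S94A (log2 fold change −0.50, limma adjusted p = 0.0222). Rbl2, the p130 gene linked to quiescence, stood at 9.92 and 10.9 against 16.3 and 17.3 TPM (log2 fold change −0.64, limma adjusted p = 0.0141). Both forms were separated in each case, but neither gene was called without YAP5SA-S94A replicate 1 or without replicate 2, where the count was 0, and Rb1 was not called with no filter (0.0517). Rbl1, the p107 gene, was not called, at 5.01 ± 0.093 TPM in YAP5SA and 5.05 ± 0.52 TPM in YAP5SA-S94A. Rb1 overlaps Lpar6 on the opposite strand, at 16.6 and 19.1 against 5.30 and 4.001 TPM, and Rbl2 overlaps Aktip.

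The E2F and DP genes, which encode the factors that retinoblastoma proteins hold in check, also split. Of 9 tested 3 rose and 1 fell, beside 17.4% and 15.5% of all tested genes, with a median log2 fold change of 0.34. E2f1, an activator, stood at 19.5 and 15.1 TPM in YAP5SA and 6.18 and 6.18 TPM in YAP5SA-S94A (log2 fold change 1.34, limma adjusted p = 0.00141). The atypical repressors E2f7 and E2f8 rose from near the detection limit: E2f7 from 0.493 ± 0.17 to 2.52 ± 0.50 TPM and E2f8 from 0.603 ± 0.13 to 2.84 ± 0.12 TPM. These 2 genes had means under 1 TPM in YAP5SA-S94A and so entered the test through the form in which they were high. E2f6, a repressor that does not bind retinoblastoma proteins, fell by 0.65, from 70.5 ± 1.73 to 44.5 ± 0.81 TPM. E2f2 was below the filter, at 0.587 to 1.62 TPM. With FPKM 1 gene of the list was called higher, since E2f7 and E2f8 no longer passed the filter.

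Genes of the G1 to S transition that E2F is known to activate were mostly higher. Of 29 tested 17 rose and 0 fell (0 also at an unadjusted p under 0.05), beside 17.4% and 15.5% of all tested genes. The median log2 fold change was 0.68, and with no filter 12 genes were called higher. One of the 17, the origin recognition gene Orc1, had a mean of 0.643 TPM in YAP5SA-S94A and 2.97 TPM in YAP5SA, so it entered the test through the form in which it was high. Rrm2, a subunit of ribonucleotide reductase, stood at 75.1 and 72.1 TPM in YAP5SA and 13.2 and 15.4 TPM in YAP5SA-S94A, and the thymidine kinase gene Tk1 at 34.1 and 33.8 against 10.5 and 9.80 TPM. Both were far apart between the forms, with log2 fold changes of 2.29 and 1.65. Cdc6, which loads the replicative helicase, rose by 1.72 and Uhrf1, which maintains DNA methylation at replication, by 1.55. Some genes of the same list were close to equal in both forms, among them Rrm1 at 98.2 ± 8.15 against 97.0 ± 1.34 TPM and Lig1 at 37.8 ± 3.611 against 37.6 ± 0.14 TPM, both picked after their values were seen. The sign of either difference changed with the scaling. The number called higher was 13 to 17 with 1 library left out. In the same libraries the markers of dividing cells were higher: Mki67 stood at 13.2 and 14.9 against 5.70 and 6.497 TPM, and Top2a at 25.7 and 31.9 against 5.02 and 6.72 TPM.

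Among 8 tested genes for the turnover of G1 cyclins and their inhibitors 2 rose and 0 fell (0 also at an unadjusted p under 0.05). Of all tested genes 17.4% were called higher and 15.5% lower. Counted in either direction, the share called was smaller than the 32.9% of all tested genes. Skp2, the ubiquitin ligase subunit that targets p27, stood at 16.9 and 16.4 TPM in YAP5SA and 2.36 and 2.60 TPM in YAP5SA-S94A, a log2 fold change of 2.34 (SE 0.17, limma adjusted p = 1.00e-04). Fbxw7, the subunit that targets cyclin E, stood at 44.0 and 42.4 against 18.2 and 20.9 TPM (log2 fold change 1.11, limma adjusted p = 7.97e-04). Both ligase genes were higher in the libraries in which the cyclin E genes were higher and Cdkn1b was lower. These are transcript levels, and a link among these genes was not tested. Cul1, the scaffold that both ligases share, named after its values were seen, was not called. It stood at 70.4 ± 1.76 TPM in YAP5SA and 72.5 ± 1.59 TPM in YAP5SA-S94A. The median log2 fold change of the list was 0.19, and 0.12 leaving out the mitochondrial chromosome.

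Of 6 tested genes for kinase activation 2 rose and 0 fell (0 also at an unadjusted p under 0.05). Beside this, 17.4% of all tested genes were called higher and 15.5% lower. Counted in either direction, the share called was near the 32.9% of all tested genes. Both genes that rose encode subunits of the CDK-activating kinase. Cdk7, its catalytic subunit, stood at 45.5 and 57.2 TPM in YAP5SA and 29.7 and 33.02 TPM in YAP5SA-S94A (limma adjusted p = 0.0102), and cyclin H (Ccnh) at 48.3 and 46.4 against 35.1 and 36.3 TPM (limma adjusted p = 0.0295). The forms were separated for both, while the third subunit, Mnat1, was at 35.8 ± 0.040 against 39.1 ± 4.68 TPM and was not called. Without YAP5SA-S94A replicate 1 or 2 the count was 1, and Ccnh was the call lost (limma adjusted p = 0.263 and 0.191). It was also lost with FPKM (0.0609), with no intensity trend (0.0624) and with the mitochondrial chromosome left out (0.0539).

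**Figure D4:**
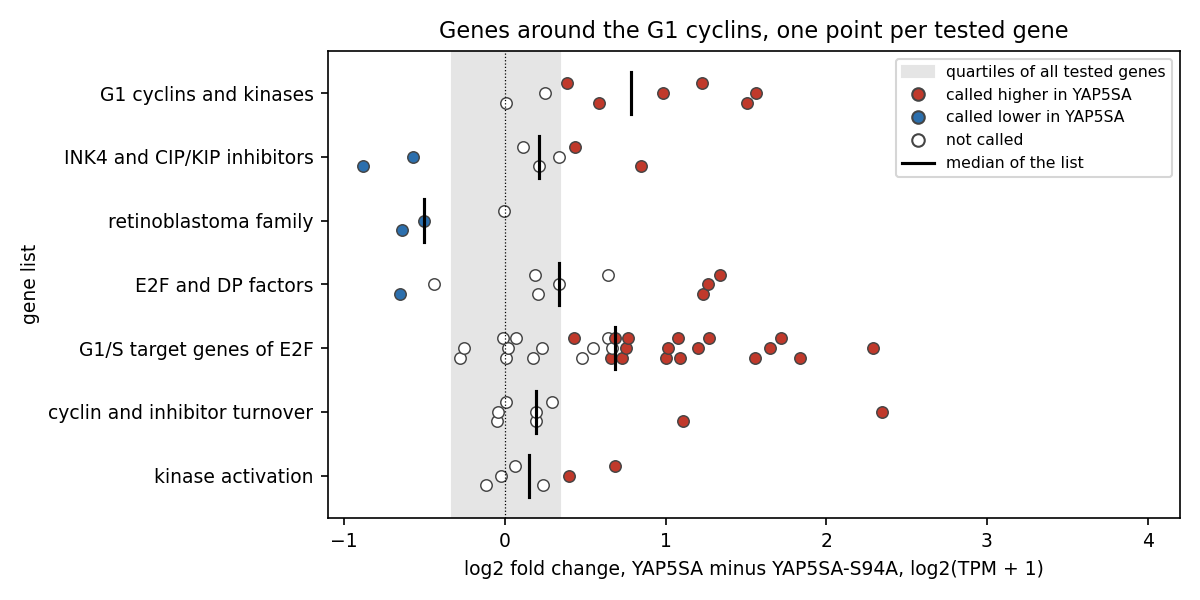
Log2 fold change (YAP5SA minus YAP5SA-S94A) of each tested gene in 7 lists, filled red or blue where limma called it higher or lower and open where it did not, with a black line at the list's median and a grey band between the quartiles of all tested genes (−0.33 to 0.34). The medians of the G1 cyclins and kinases (0.79) and of the E2F target list (0.68) lie to the right of the band and that of the retinoblastoma family (−0.50) to its left.

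The cells were checked against markers. Cardiomyocyte markers were abundant, with summed levels of 25533 and 25687 TPM over 8 genes in YAP5SA and 23350 and 23114 TPM in YAP5SA-S94A. Of these 2 rose: Nppa, the atrial natriuretic peptide gene, at 9625 and 9474 against 3743 and 3714 TPM, and the cardiac actin gene Actc1 at 6619 and 6776 against 4597 and 4270 TPM. The other genes that changed, 5 in number, fell, among them the myosin gene Myh6 at 458 and 413 against 1388 and 1499 TPM, the troponin gene Tnni3 at 912 and 801 against 2614 and 2401 TPM, and phospholamban (Pln) at 654 and 673 against 1486 and 1481 TPM. The higher sum in YAP5SA thus came with lower levels of most of its genes. Fibroblast markers were also present, at 8527 and 6748 TPM in YAP5SA and 7243 and 6888 TPM in YAP5SA-S94A, and 0 of 8 rose and 2 fell. Sums for the other lists were lower, and in each the forms did not overlap. In each list the direction of the sum came from 1 gene, and the other genes together did not share it. These sums therefore do not stand for the amount of a cell type. Endothelial markers summed to 24.8 and 27.1 TPM in YAP5SA and 34.9 and 33.9 TPM in YAP5SA-S94A (2 of 6 rose, 1 fell). The gene that fell was Kdr, at 3.97 and 3.33 against 21.3 and 19.9 TPM, while Tek and Flt1 rose. Smooth muscle and pericyte markers summed to 199 and 180 against 253 and 280 TPM (0 of 6 rose, 1 fell). Abcc9 was the gene that fell, at 12.7 and 13.2 against 88.5 and 101 TPM. Epicardial and mesothelial markers summed to 57.6 and 50.8 against 42.2 and 40.3 TPM (2 of 5 tested rose, 0 fell). Of these 2, Upk3b stood at 22.4 and 18.2 against 0.611 and 0.544 TPM, so it entered the test through the form in which it was high. Msln also rose, while Wt1, Tbx18 and Upk1b were lower in both YAP5SA libraries and were not called. Immune markers summed to 112 and 102 against 122 and 121 TPM (1 of 5 tested rose, 2 fell). Of the 2 that fell, Cd68 stood at 53.6 and 45.9 against 73.4 and 78.2 TPM. Csf1r rose, at 38.2 and 37.5 against 14.6 and 12.9 TPM. Over all tested genes 17.4% were called higher and 15.5% lower. The T cell marker Cd3e was listed at 0 in all 4 libraries. Which cells held the G1 cyclin transcripts was not measured, the part of other cell types in the results was not tested, and in bulk RNA fewer cells of a type and less RNA per cell cannot be told apart. The YAP/TEAD target genes Ccn1 (480 against 38.0 TPM), Ccn2 (995 against 256 TPM) and Ankrd1 (3591 against 766 TPM) rose, as a check of the labels, while Yap1, at 102 TPM in YAP5SA and 119 TPM in YAP5SA-S94A, was not called (limma adjusted p = 0.122, but 0.0494 leaving out the mitochondrial chromosome and 0.0473 leaving out YAP5SA replicate 1); how much of the overexpressed form this row captures is unknown.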

How the data were processed

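RNA-seq tables of 4 libraries, 2 per YAP form, were used. Per the submitters' processing notes, fastp, HISAT2 2.2.1 and StringTie 2.2.1 were used with the rat build rn7, with no settings given. The TPM and FPKM values were computed by the authors, and the deposited coverage column is an unscaled per-base signal. Aligned sequence per library was read from how coverage relates to FPKM, as the highest such ratio in a table. Chromosome names came from the RefSeq gene table of GRCr8, which held all 8 genes, and coordinates are those of the deposited tables.

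TPM was summed over rows that share a gene name. Genes with a mean of at least 1 TPM were tested with limma 3.58.1 in R 4.3.3 on log2(TPM + 1), with the prior variance following intensity (degrees of freedom: 2 residual, 5.09 prior) and Benjamini-Hochberg adjustment over all 13420 genes. The fit was tested on simulated data. Python 3.11.15 with pandas 2.3.3 and matplotlib 3.10.9 served for the remaining steps. No list was tested as a set.

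The 8 genes and the lists were chosen with earlier results of these data known. Named were the 8 genes, all inhibitor and retinoblastoma genes, up to 4 called genes with the smallest p in each other list, the marker and check genes, and for each of the 8 the 2 genes nearest in Euclidean distance; genes outside this rule are given as values or as picked later. Alternatives were other pseudocounts, filters, units, scalings and variance models, a stricter threshold, the replicate number as a block, the highest row per name, and each library left out. The planned protein comparison was not made, and CUT&RUN data were not used here.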

Additional observations from a re-analysis of the deposited data

How the results depend on the processing

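With 2 libraries per form, a test without 1 library rests on 1 residual degree of freedom, and the lone library is taken to vary like the others. Leaving out each library gave 3 to 6 of the 8 genes called higher and 0 called lower, and over all genes 1700 to 2610 called higher and 1312 to 2739 called lower. Over these 4 fits the log2 fold change ran from 0.318 to 0.455 for Ccnd2, from 0.55 to 0.62 for Ccne1, from 0.92 to 1.05 for Ccne2 and from −0.11 to 0.12 for Cdk4. At an adjusted p under 0.01 limma called 3 of the 8 genes higher, and 1439 higher and 1046 lower over all genes. Ccnd2 lost its call with no filter (log2 fold change 0.39, limma adjusted p = 0.0509), with no intensity trend (0.39, adjusted p = 0.0800) and with FPKM (0.35, adjusted p = 0.0577). Cdk4 changed sign with FPKM (−0.023), quantile normalization (−0.065) and the mitochondrial chromosome left out (−0.066). The log2 ratio of the cyclin E sum was 0.76 and fell to 0.68 with the mitochondrial chromosome left out. Ccne2 was below the filter with FPKM and with a minimum of 5 TPM. The median log2 fold change of all genes was −0.066 with the mitochondrial chromosome left out, the largest shift among the scalings. Ccnd1, Ccnd3 and Cdk6 kept their direction and call in each of the 16 alternatives. The titles number the libraries 1 and 2 in each form, but the library names number them differently, and the number that a name of each form shares belongs to YAP5SA replicate 2 and YAP5SA-S94A replicate 1. Which libraries belong together, if any, is therefore not known. By the title numbers, the deviations of same-numbered libraries correlated over genes at 0.101, and with that number as a block 6 of the 8 genes were called higher, with 2726 higher and 2593 lower over all genes and 5 E2F and DP genes called higher in place of 3.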

Other observations

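Of 18 other cyclins tested 6 rose and 3 fell, beside 17.4% and 15.5% of all tested genes. Their median log2 fold change was 0.091, but 0.059 without YAP5SA-S94A replicate 2 and 0.021 with the mitochondrial chromosome left out. Cyclin A2 (Ccna2), which takes over Cdk2 in S phase and is also in the E2F target list, stood at 33.4 and 34.5 TPM in YAP5SA and 11.8 and 6.45 TPM in YAP5SA-S94A. The mitotic cyclins Ccnb1 and Ccnb2 rose by 1.48 and 1.70 on the log2 scale, and Ccnyl1, a relative of cyclin Y, by 1.15. Ccnyl1 overlaps Fzd5 on the opposite strand, at 32.0 and 31.5 against 5.90 and 5.503 TPM, so its value is uncertain. The 3 that fell, named after their values were seen, were Ccng2 (35.9 ± 2.92 to 18.5 ± 1.72 TPM), Ccni (261 ± 6.51 to 173 ± 5.03 TPM) and Ccnl2 (87.2 ± 2.12 to 59.4 ± 9.26 TPM). Ccng2 is known as a cyclin of arrested cells. Ccni lies wholly within Septin11 on the opposite strand, at 200 and 208 against 139 and 140 TPM. Ccnl2 was not called without YAP5SA-S94A replicate 2 (limma adjusted p = 0.0626), with no filter (0.0583) or with no intensity trend (0.0510).

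Of 15 other cyclin-dependent kinases tested 5 rose and 1 fell, where 32.9% of all tested genes were called in either direction. The sign of their median log2 fold change was not stable: it was 0.050, but −0.030 without YAP5SA replicate 1, −0.017 with the mitochondrial chromosome left out, 0.13 without YAP5SA replicate 2 and 0.17 without YAP5SA-S94A replicate 2. Cdk1, the mitotic kinase, stood at 76.7 and 87.1 TPM in YAP5SA and 17.7 and 10.3 TPM in YAP5SA-S94A (log2 fold change 2.51, limma adjusted p = 2.85e-04), so that it lay below Cdk2 in both YAP5SA-S94A libraries and above it in both YAP5SA libraries. Cdk14 and Cdk17, less studied kinases of the family, rose by 0.71 and 1.12, and Cdk7 is described among the activating kinases. Cdk19, the gene that fell and likewise chosen from its values, measured 8.80 and 11.3 against 14.5 and 15.2 TPM, and its call was lost without YAP5SA replicate 1 and without either YAP5SA-S94A library, and with no filter, no intensity trend or a pseudocount of 0.1. The transcriptional kinase gene Cdk9, also picked afterwards, was not called, with 88.2 ± 8.17 TPM in YAP5SA and 86.5 ± 1.61 TPM in YAP5SA-S94A.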
